A study of Mus musculus with 30 samples.

Results

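Fatty acid binding proteins are small cytosolic proteins that carry long-chain fatty acids and related lipids inside the cell. Here, the transcripts of 5 of them, *Fabp1*, *Fabp2*, *Fabp4*, *Fabp5* and *Fabp7*, were followed in mouse liver. Members were chosen by name, and every array probe set that carries only the symbol of a member was used. This gave 8 probe sets of 41345 on the array, and 5 genes of 22180 that had a probe set with their symbol alone. *Fabp5* had 4 probe sets and the other members 1 each.

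Livers came from male C57BL/6J mice of 35 weeks of age, 6 in each of 5 groups, 30 in all, with 1 array each. Formerly obese mice had eaten a diet rich in fat and sucrose (HFD) over 20 weeks, followed by a low-fat control diet over 7 weeks. Formerly obese-HFD mice had the same history and were refed with HFD for the last 48 h. Obese mice stayed on HFD for 27 weeks, lean-HFD mice met HFD for the first time for 48 h after 27 weeks of control diet, and lean mice received control diet only. The labels give no genetic change for any group. The comparisons ask how the liver differs during obesity, after weight loss, and when HFD is given for a short time with or without a history of obesity.

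Each binding protein is known for a tissue of its own. *Fabp1* encodes the liver form, one of the most abundant proteins of the hepatocyte cytosol and a textbook target of the fatty acid receptor PPAR-alpha. *Fabp2* encodes the intestinal form, best known from the absorptive cells of the small intestine. *Fabp4*, the adipocyte form (aP2), is a target of PPAR-gamma and is also made by macrophages and capillary endothelium, while *Fabp5*, the epidermal form, is made in skin, macrophages and several other tissues. *Fabp7*, the brain form, is known from radial glia. In whole liver, RNA of hepatocytes is mixed with that of Kupffer cells (the resident macrophages of the liver), endothelial, stellate and other cells. Fewer cells of a type and less RNA per cell cannot be told apart in such samples.

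The sequences just before the start of the gene are shown for *Fabp1*, *Fabp2* and *Fabp7*, 3 of the 5 members with a promoter in the RefSeq table (build GRCm38.p6), since nuclear receptor genes are set beside the members below. Each line gives the 100 bases before the annotated start on the plus strand, 5′ to 3′. Capitals mark matches to the nuclear receptor site AGGTCA on either strand, to the direct repeat of that site with 1 base between the copies (DR1, with at most 2 mismatches), and to TATAAA.
*Fabp1*, chr6:71199779-71199878: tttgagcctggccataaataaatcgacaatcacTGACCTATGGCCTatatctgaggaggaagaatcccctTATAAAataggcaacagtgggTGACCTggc
*Fabp2*, chr3:122894972-122895071: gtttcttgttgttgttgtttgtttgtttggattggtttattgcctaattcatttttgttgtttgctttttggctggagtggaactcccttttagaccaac
*Fabp7*, chr10:57784823-57784922: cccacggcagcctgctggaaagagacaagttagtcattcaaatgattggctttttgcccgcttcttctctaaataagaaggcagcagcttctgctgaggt
In *Fabp1*, counted from the start, a DR1 lay on the minus strand at -67 to -55 with 1 mismatch, and its first 6 plus-strand bases were also an AGGTCA match at -67 to -62. A further AGGTCA match on the minus strand lay at -9 to -4, and TATAAA lay at -30 to -25. Over 300 bases (250 before and 50 after the start), *Fabp2* held no match, and *Fabp7* held an AGGTCA match on the minus strand at -171 to -166, upstream of the bases shown. Of all 32851 promoters of the same length, 16.3% held AGGTCA, 13.6% TATAAA and 3.86% the DR1. A match is a description of the letters only.

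The arrays resembled each other, with *r* of 0.962 to 0.983 between livers over all probe sets and array medians of 3.29 to 3.38 on the log2 scale. The summed linear signal of 12 hepatocyte genes lay between 42493 and 48969 in all livers. It differed by group, with 42493 to 45586 in obese, 44263 to 47485 in lean and 46198 to 48154 in lean-HFD livers. The range was 44482.5 to 48956 in formerly obese and 45456 to 48969 in formerly obese-HFD livers. Of the 12 genes, 3 passed the criteria given below as lower in obese vs lean-HFD livers, and 0 passed in obese vs lean livers. In obese vs formerly obese-HFD livers 3 passed as lower, and in formerly obese vs obese livers 2 passed as higher. Signals are given below as linear values, 2 to the power of the deposited log2 value. The number of arrays limits their precision. A probe set passed the criteria of the study's liver analysis when limma's *P* was under 0.01, the ratio of linear averages was above 1.2 in either direction, and an average was above 8 in at least 1 group. Where genes of a list are counted below as having risen or fallen, they passed these criteria. The false discovery rate (FDR), set at 10%, counted every probe set on the array.

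The 5 members spanned a wide range of signal, with *Fabp1* near the top of the array and *Fabp7* far below it. Only 21 probe sets (0.0508%) had a higher mean over the 30 livers than *Fabp1*. The share of probe sets with a higher mean was 0.59% for *Fabp2*, up to 10.3% for the *Fabp5* probe sets (602 to 4238 probe sets above them), 9.49% for *Fabp4* and 19.7% for *Fabp7*. These are shares of probe sets by signal. Probes differ in their response, so they do not rank the amounts of transcript.

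*Fabp5* was lower and *Fabp4* higher in obese than in lean livers, and neither passed the criteria between formerly obese and lean livers. Obese mice were also eating HFD when sampled, so obesity and current diet cannot be told apart here. In obese vs lean livers, 5 of 8 probe sets passed the criteria, *Fabp4* higher and all 4 of *Fabp5* lower, while 2.01% of all probe sets passed. Between formerly obese and obese livers 6 of 8 passed, all 4 of *Fabp5* higher and *Fabp4* and *Fabp2* lower, beside 2.17% of all. None of the 8 passed in formerly obese vs lean livers (0.905% of all). The 8 probe sets stand for 5 genes, and the 4 of *Fabp5* are not separate observations. Both of the first 2 comparisons share the obese livers.

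Short HFD feeding moved no member past the criteria in a single comparison. In lean-HFD vs lean livers 0 of 8 passed (1.29% of all probe sets), in formerly obese-HFD vs formerly obese livers 0 of 8 (1.18%), and in formerly obese-HFD vs lean-HFD livers 0 of 8 (0.914%). Long and short HFD feeding were compared as well. *Fabp4* alone passed in obese vs lean-HFD livers (2.73% of all), and 4 of 8 probe sets passed in obese vs formerly obese-HFD livers (1.64% of all), namely *Fabp4* and *Fabp2* higher and 2 of the 4 of *Fabp5* lower.

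No member passed the FDR of 10% in any of these 8 comparisons, and the smallest adjusted *P* (limma, Benjamini-Hochberg over all probe sets) was 0.142 for *Fabp5* in obese vs lean livers. The share of all probe sets past this FDR was 0.0895% in obese vs lean, 0% in formerly obese vs lean and 0.189% in formerly obese vs obese livers. It was 0.00726% in lean-HFD vs lean, 0.0242% in formerly obese-HFD vs formerly obese, 0% in formerly obese-HFD vs lean-HFD, 0.353% in obese vs lean-HFD and 0.0193% in obese vs formerly obese-HFD livers.

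**Figure D1:**
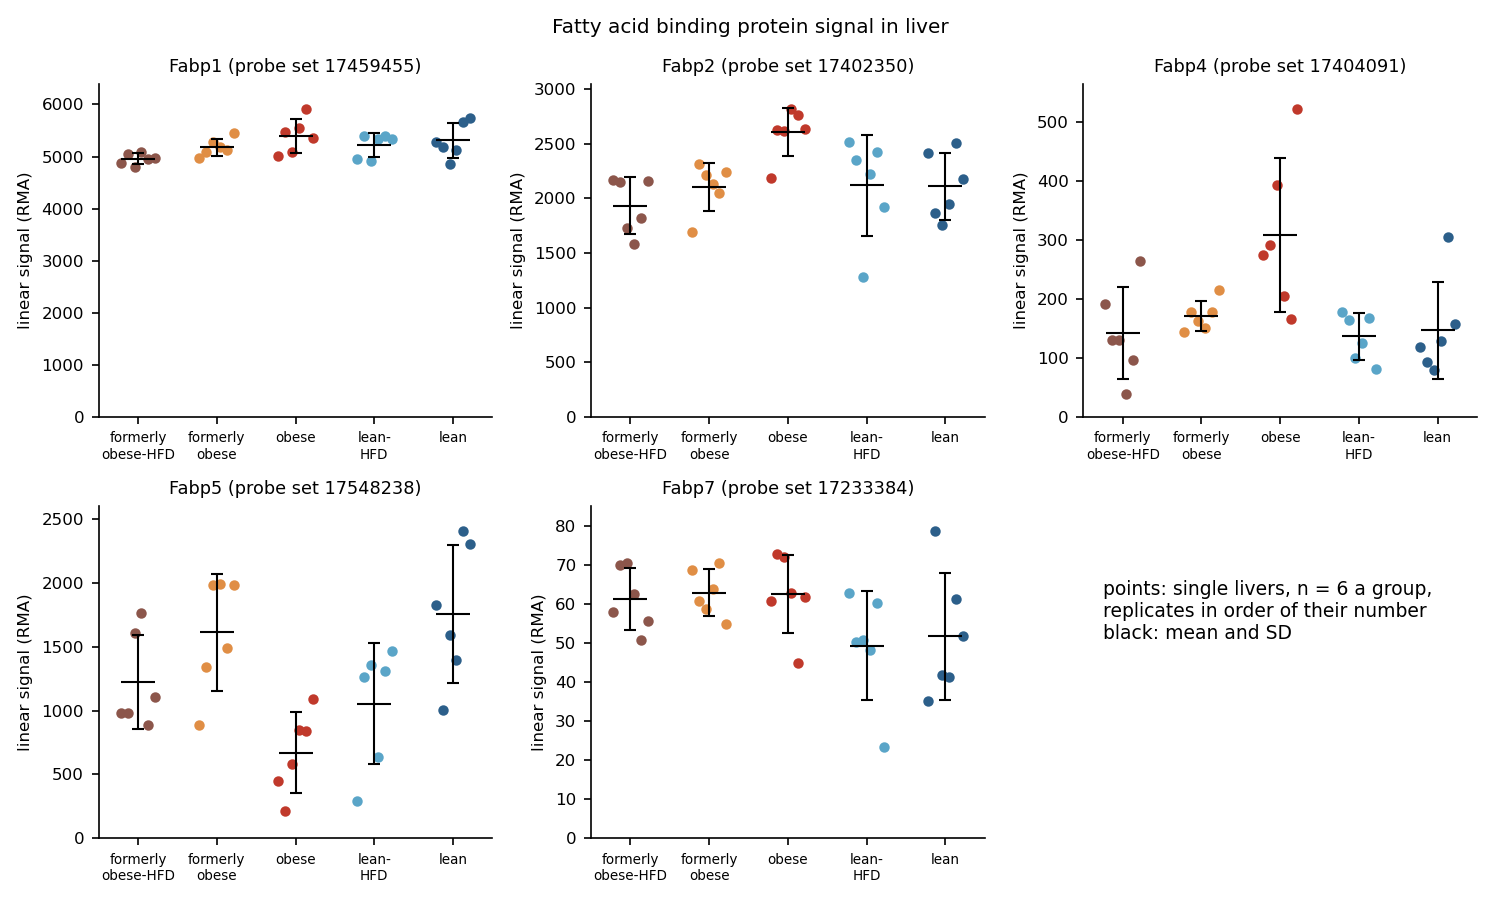
Linear signal (RMA, y axis from 0) of each member in every liver (points, 6 a group), with mean and SD in black. Obese livers are highest for *Fabp4* and *Fabp2* and lowest for *Fabp5*, *Fabp1* lies between 4797 and 5910.2 in all livers, and *Fabp7* is below 79 in every liver.

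*Fabp5* was lower in obese livers by more than any other member changed. On probe set 17548238, the one with the highest mean, obese livers lay between 212 and 1094 with a median of 709.7, while lean livers lay between 1002 and 2410.3 with a median of 1709.7. Obese replicate 6, at 1094, was the only obese liver above the lowest lean one, replicate 2, so the groups overlapped by a single pair. The averages were 670.3 ± 319 in obese and 1755 ± 540.1 in lean livers (SD, n = 6 each), a ratio of 0.382. The log2 difference was -1.51 (SE 0.353, 95% interval -2.27 to -0.75, limma *P*=0.000884, adjusted *P*=0.214, two-sided exact permutation *P*=0.00433). All 6 obese livers lay below the lean mean.

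The other 3 *Fabp5* probe sets gave the same picture at other levels of signal. Obese vs lean differences were -1.70 (SE 0.344, limma *P*=0.000255) on 17396056, -2.02 (SE 0.446, limma *P*=0.000544) on 17404073 and -1.50 (SE 0.342, limma *P*=0.000712) on 17548717, with exact permutation *P*=0.00433 for each. Averages on 17404073 were 118 ± 58.4 in obese and 444 ± 184 in lean livers, and on 17396056 77.3 ± 30.4 in obese and 248 ± 90.1 in lean livers (SD, n = 6 each). Over the 30 livers the 4 probe sets correlated with *r* of 0.971 to 0.9996, and 17548238 and 17548717 differed by at most 0.082 on the log2 scale in any liver. They are repeated readings of the same RNA. The sources used here do not give which copies of the *Fabp5* sequence each probe set matches, so signal from near-identical copies, pseudogenes included, could not be told apart from that of the gene.

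**Figure D2:**
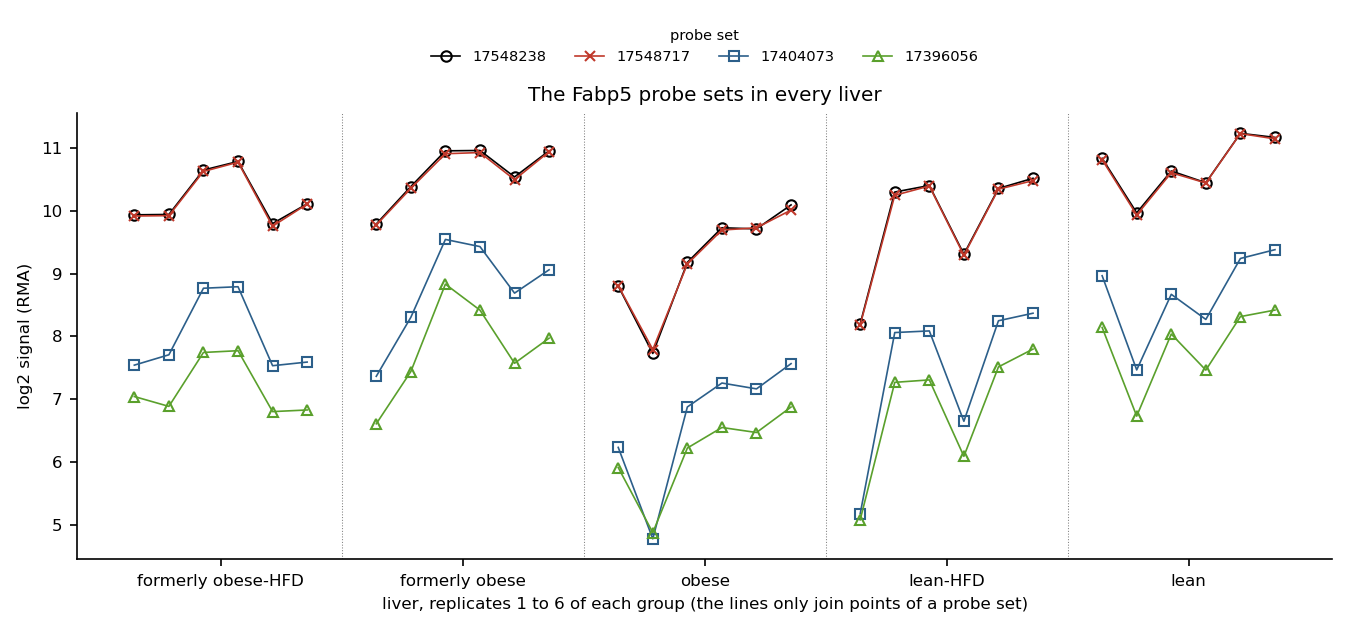
Log2 signal (RMA, y axis) of the 4 *Fabp5* probe sets in each liver (x axis, replicates 1 to 6 of each group, joined only to guide the eye). The 4 traces run together, with obese replicate 2 and lean-HFD replicate 1 the lowest livers on every probe set.

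After weight loss *Fabp5* was near the lean level. Formerly obese livers lay between 886 and 1995 with a median of 1738 on 17548238, and averaged 1614 ± 457 (SD, n = 6). Their values spread through those of the lean livers, and 3 of 6 lay above the lean mean. Formerly obese minus lean was -0.12 (SE 0.244, 95% interval -0.64 to 0.41, limma *P*=0.639, exact permutation *P*=0.675) on this probe set and between -0.13 and 0.07 on all 4. Formerly obese minus obese was 1.39 (SE 0.351, 95% interval 0.63 to 2.15, limma *P*=0.00159, adjusted *P*=0.209, exact permutation *P*=0.00433), and the other 3 probe sets gave 1.37, 1.66 and 2.09. Of the formerly obese livers, replicate 1 was the lowest, at 886, and lay below the highest obese liver.

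Macrophages and stratified epithelium make *Fabp5*, and their genes were set beside it. Of 19 measured Kupffer cell and macrophage genes, *Cd9* passed the criteria as lower and none as higher in obese vs lean livers. Regardless of the criteria, 16 of the 19 had a difference above 0 and 3 below. The summed signal was 1217 to 2020 in obese and 1141 to 1698 in lean livers. In formerly obese livers *Timd4*, *Marco* and *Cd9* rose relative to obese livers, and the sum was 1519 to 2804 in formerly obese livers. Of 7 measured genes of stratified epithelium, 0 passed in either comparison. The part of these cells in the *Fabp5* differences was not tested.

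HFD for 48 h went with lower *Fabp5* signal in livers of both histories, without passing the criteria in either. Lean-HFD livers lay between 294 and 1467 with a median of 1286 on 17548238, and averaged 1054 ± 474 (SD, n = 6), against 1755 ± 540.1 in lean livers. Replicates 1 and 4 stood well below the other 4 lean-HFD livers, and all 6 lay below the lean mean. The log2 difference was -0.87 (SE 0.373, 95% interval -1.67 to -0.06, limma *P*=0.0365, exact permutation *P*=0.0563), and it was -0.54 without lean-HFD replicate 1. Formerly obese-HFD livers lay between 890.2 and 1767 with a median of 1046, and averaged 1223 ± 369.7 (SD, n = 6), against 1614 ± 457 in formerly obese livers. The groups overlapped widely, with a log2 difference of -0.39 (SE 0.229, 95% interval -0.89 to 0.10, limma *P*=0.109, exact permutation *P*=0.149). Over the 4 probe sets the 48 h differences ran from -0.87 to -1.23 in lean mice and from -0.38 to -0.74 in formerly obese mice.

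The effect of 48 h of HFD on *Fabp5* did not differ detectably between both histories. The interaction, the difference in formerly obese minus that in lean mice, was 0.47 on 17548238 (SE 0.462, 95% interval -0.48 to 1.43, limma adjusted *P*=0.960) and 0.14 without lean-HFD replicate 1, and the unadjusted *P* was 0.301 to 0.519 on the 4 probe sets. No member passed in the interaction, where 1.02% of all probe sets had *P* under 0.01 and 0% passed the FDR. A contrast added after the values had been seen averaged the 48 h effect over both histories (24 livers). It gave -0.63 on 17548238 (SE 0.231, limma *P*=0.0118, adjusted *P*=0.468, exact permutation *P*=0.0120). Of the 4 probe sets, 17396056 with -0.82 (limma *P*=0.00971, exact permutation *P*=0.0127) and 17404073 with -0.99 (limma *P*=0.00758, exact permutation *P*=0.00909) had *P* under 0.01, the only threshold used for averaged contrasts, as did 2.25% of all probe sets. Without lean-HFD replicate 1 or any of 13 other livers neither of them did. No member was among the 0.331% past the FDR.

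Ordered by mean signal on 17548238, *Fabp5* was lowest in obese livers, followed by lean-HFD, formerly obese-HFD, formerly obese and lean livers. No pair of neighbours in this order was shown to differ beyond its spread. Exact permutation *P* was 0.238 for obese vs lean-HFD, 0.457 for formerly obese-HFD vs lean-HFD, 0.149 for formerly obese-HFD vs formerly obese and 0.675 for formerly obese vs lean livers. Obese vs formerly obese-HFD livers had a log2 difference of -0.996 (limma *P*=0.0121, SE 0.343, exact permutation *P*=0.0173) on this probe set, which did not pass, and by -1.03 (limma *P*=0.00477) on 17396056 and -1.34 (limma *P*=0.00762) on 17404073, which did. The exact test of a pair of groups runs over all divisions of its 12 livers, with 0.00216 as the smallest *P* it can give, and 10 pairs were compared for each probe set without adjustment.

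*Fabp4* was higher in obese livers than in any other group. Obese livers lay between 166 and 522 with a median of 283, while lean livers lay between 78.6 and 304 with a median of 124. Of the lean livers, replicate 5, at 304, stood above 4 of the obese livers, and the other 5 lean livers lay below all 6 obese ones. The averages were 309 ± 130.5 in obese and 147 ± 81.9 in lean livers (SD, n = 6 each), with a log2 difference of 1.12 (SE 0.330, 95% interval 0.41 to 1.83, limma *P*=0.00475, adjusted *P*=0.371, exact permutation *P*=0.0195). Without any 1 of 5 livers (obese replicates 3 and 6, lean replicates 1, 2 and 3) limma *P* was above 0.01, at most 0.0125.

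In the other groups *Fabp4* averaged nearer to lean than to obese livers, with 171 in formerly obese, 136 in lean-HFD and 142 in formerly obese-HFD livers. Formerly obese livers lay between 144 and 215 with a median of 169.6, the narrowest range of any group. Formerly obese minus obese was -0.76 (SE 0.233, 95% interval -1.26 to -0.26, limma *P*=0.00614, exact permutation *P*=0.0173), and limma *P* was above 0.01 without any 1 of 9 of the 12 livers. Formerly obese minus lean was 0.36 (SE 0.261, 95% interval -0.21 to 0.92, limma *P*=0.193, exact permutation *P*=0.247). Lean-HFD livers lay between 81.8 and 179 with a median of 145, and lean-HFD minus lean was -0.01 (SE 0.300, 95% interval -0.66 to 0.63, limma *P*=0.967, exact permutation *P*=0.981).

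Formerly obese-HFD livers had *Fabp4* values between 38.2 and 264 with a median of 130.3, a ratio of 6.91 between highest and lowest. Replicate 4 was the lowest liver of all and replicate 6 the highest of its group. The log2 difference to formerly obese livers was -0.48 (SE 0.354, 95% interval -1.25 to 0.28, limma *P*=0.195, exact permutation *P*=0.279), and -0.15 without replicate 4. Obese minus lean-HFD was 1.13 (SE 0.276, 95% interval 0.54 to 1.73, limma *P*=0.00121, adjusted *P*=0.156, exact permutation *P*=0.00649), and this passed without any 1 liver. Obese minus formerly obese-HFD was 1.24 (limma *P*=0.00899, SE 0.407, exact permutation *P*=0.0195), and without any 1 of 8 livers limma *P* was above 0.01, at most 0.0232.

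Levels of other cell types were set beside *Fabp4*, since adipocytes, macrophages and endothelium make it. The defining adipocyte genes *Adipoq* (adiponectin), *Retn* (resistin) and *Lep* (leptin) were dim, with means of 7.15, 7.68 and 6.22 in obese and 7.30, 8.22 and 6.25 in lean livers. Of 10 measured adipocyte genes, *Cidec* was higher and *Pnpla3* lower in obese livers, and both also belong to the lipid droplet list below. The summed signal of the adipocyte list was 334 to 687 in obese and 141 to 355 in lean livers, and *Cidec* alone averaged 375 ± 165 in obese and 91.1 ± 83.6 in lean livers (SD, n = 6 each). Summed endothelial genes (14) ranged from 1459 to 1925 in obese and from 1341 to 1718 in lean livers, where *Lyve1* rose and *Aqp1* fell. In lean-HFD livers the endothelial sum was 981 to 1535, and *Lyve1* and *Gpihbp1* were higher in obese than lean-HFD livers. The sums of macrophage genes are given above, beside *Fabp5*. Their part in the *Fabp4* differences was not tested.

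*Fabp2* was highest in obese livers, as *Fabp4* was, by a smaller step. Formerly obese livers lay between 1696 and 2315 with a median of 2172, and obese livers between 2190.4 and 2817 with a median of 2629. Obese replicate 1 was the only obese liver within the formerly obese range. The averages were 2107 ± 221 in formerly obese and 2608 ± 221 in obese livers (SD, n = 6 each), a log2 difference of -0.31 (SE 0.0931, 95% interval -0.51 to -0.11, limma *P*=0.00529, adjusted *P*=0.334, exact permutation *P*=0.00866). Without any 1 of 6 livers limma *P* was above 0.01, at most 0.0132.

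Lean livers had *Fabp2* values between 1757 and 2509 with a median of 2062. Obese minus lean was 0.31 (SE 0.106, 95% interval 0.08 to 0.54, limma *P*=0.0111, exact permutation *P*=0.0152), nearly the same step, which did not pass. Formerly obese minus lean was 0.00 (SE 0.110, 95% interval -0.24 to 0.24, limma *P*=0.986, exact permutation *P*=0.994). Formerly obese-HFD livers, between 1578 and 2168 with a median of 1986, were all below the lowest obese liver. Obese minus formerly obese-HFD was 0.44 (SE 0.104, 95% interval 0.21 to 0.66, limma *P*=0.00102, adjusted *P*=0.302, exact permutation *P*=0.00216, the smallest possible), and it passed without any 1 liver. Lean-HFD livers ranged from 1281 to 2514, with replicate 3 far below the others. The 48 h differences were -0.02 (SE 0.161) in lean and -0.13 (SE 0.108) in formerly obese mice, and neither passed.

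The intestinal form is a marker of gut epithelium, so the genes of that tissue were read as well. Of 12 measured intestinal epithelium genes, 5 had an average above 8 in a group, and *Sis*, *Lct* and *Cdx2*, which define absorptive cells, were at or under 8 in every group. None of the 12 passed in obese vs lean or in formerly obese vs obese livers. *Apoa4*, an apolipoprotein that the liver also makes, averaged 3946 in obese, 3532 in formerly obese and 3696 in lean livers and carried nearly all of the summed signal of the list. The part of intestinal cells in the *Fabp2* differences was not tested.

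The array signal of *Fabp1* hardly changed. Only 21 probe sets had a higher mean, and how fully differences in transcript show at this level was not tested. Formerly obese-HFD livers had the narrowest range of signal, 4797 to 5088 (median 4968). The other groups lay between 4977 and 5442 in formerly obese livers (median 5151), 5015 and 5910.2 in obese livers (median 5414), 4915 and 5401 in lean-HFD livers (median 5334), and 4864 and 5733 in lean livers (median 5224). The highest and lowest liver of a group differed by a ratio of 1.06 to 1.18, the least of all members. No comparison passed, and obese minus lean was 0.02 (SE 0.0750, 95% interval -0.14 to 0.19, limma *P*=0.752, exact permutation *P*=0.647).

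The largest *Fabp1* difference was obese minus formerly obese-HFD, at 0.12 (SE 0.0707, 95% interval -0.03 to 0.27, limma *P*=0.111, exact permutation *P*=0.0108). All 6 formerly obese-HFD livers lay below the mean of the formerly obese livers, with a difference of -0.06 (limma *P*=0.329, exact permutation *P*=0.0173). Here limma, which draws the variance of a probe set towards that of all probe sets, and the permutation test differed. The permutation *P* is one of 10 for this probe set and is not adjusted. The mean differences correspond to ratios of 1.09 and 0.957.

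*Fabp7* had the lowest mean signal of the members, between 23.5 and 78.8 in all livers, though only 19.7% of probe sets were brighter. It was higher on average in the 3 groups with past or present obesity. Formerly obese-HFD livers averaged 61.2 ± 7.97, formerly obese livers 62.9 ± 5.93 and obese livers 62.5 ± 10.1, against 49.3 ± 13.99 in lean-HFD and 51.7 ± 16.1 in lean livers (SD, n = 6 each). Medians were 60.2, 62.4 and 62.3 in the first 3 groups in the same order, 50.5 in lean-HFD and 46.8 in lean livers. The groups overlapped. Lean replicate 2 had the highest signal of all (78.8) and lean-HFD replicate 6 the lowest (23.5).

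No *Fabp7* comparison passed with all livers in it. Formerly obese minus lean was 0.33 (SE 0.170, 95% interval -0.03 to 0.70, limma *P*=0.0710, exact permutation *P*=0.104), obese minus lean 0.31 (SE 0.186, limma *P*=0.117), and formerly obese-HFD minus lean-HFD 0.37 (SE 0.205, limma *P*=0.0956), which was 0.17 without lean-HFD replicate 6. Averaged over both diets, a contrast added after the values had been seen, formerly obese minus lean histories differed by 0.35 (SE 0.138, 95% interval 0.06 to 0.64, limma *P*=0.0184, adjusted *P*=0.691, exact permutation *P*=0.0150). Without any 1 of 2 of the 24 livers its limma *P* was under 0.01, at lowest 0.00395. In this contrast 0 of 8 member probe sets had *P* under 0.01, as did 1.57% of all, and 0% of all passed the FDR.

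Genes of Kupffer cells and macrophages were set beside *Fabp7*. In formerly obese vs lean livers 6 of 19 such genes rose and 0 fell, with a median log2 difference of 0.40 against -0.01 over all probe sets. They were *Cd68*, *Csf1r*, *Timd4*, *Vsig4*, *C1qb* and *Cd163*. After 48 h of HFD, 3 of 19 rose in formerly obese-HFD vs lean-HFD livers (*Cd68*, *C1qa* and *C1qc*) with a median of 0.40 (0.00 over all). In obese vs lean livers, where *Fabp7* differed by 0.31, 0 of 19 passed as higher and 1 as lower (median 0.11). In formerly obese vs obese livers, where *Fabp7* differed by 0.02, 3 of 19 rose (median 0.29). Regardless of the criteria, differences above 0 numbered 16 of 19 in obese vs lean and 15 in formerly obese vs obese livers. They numbered 19 in formerly obese vs lean and 17 in formerly obese-HFD vs lean-HFD livers. The summed signal of the list was 1519 to 2804 in formerly obese and 1141 to 1698 in lean livers, and 1537 to 2176 in formerly obese-HFD and 889 to 1548 in lean-HFD livers. Of 7 measured glial genes, only 3 had an average above 8 in a group, and *S100b*, *Mbp*, *Cdh19* and *Ncam1* did not. The list summed to 133 to 205 in formerly obese and 181 to 206 in lean livers, and says little about glia. The part of these cells in the *Fabp7* difference was not tested.

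**Figure D3:**
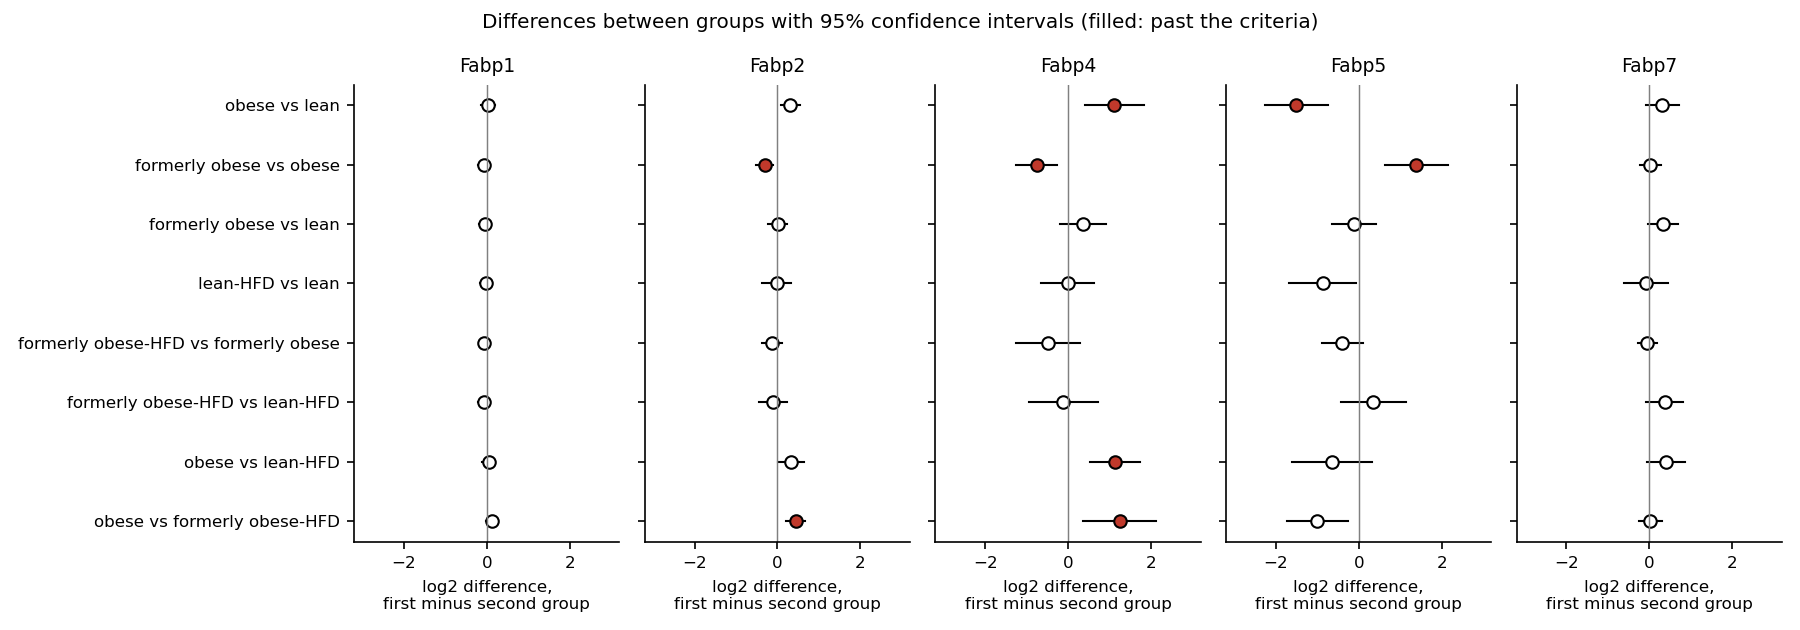
Log2 differences (x axis, first minus second group named on the left) with 95% confidence intervals for each member, *Fabp5* by probe set 17548238, from limma on 12 livers a comparison. Filled points passed the criteria: *Fabp4* and *Fabp5* in obese vs lean livers, *Fabp2*, *Fabp4* and *Fabp5* in formerly obese vs obese livers, *Fabp4* in obese vs lean-HFD livers, and *Fabp2* and *Fabp4* in obese vs formerly obese-HFD livers.

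The regulators and partners of the binding proteins were read from lists of genes, with limma's *P* adjusted over all probe sets beside each gene. *Cd36*, the fatty acid translocase of the plasma membrane, averaged 886 ± 202 in obese and 447 ± 237 in lean livers (SD, n = 6 each) and rose by 1.14 on the log2 scale (SE 0.326, adjusted *P*=0.351). *Pparg*, which encodes PPAR-gamma, averaged 190.2 ± 41.3 in obese and 101 ± 42.4 in lean livers and rose by 0.98 (SE 0.255, adjusted *P*=0.295). *Ppara*, which encodes PPAR-alpha, averaged 297 ± 27.2 in obese and 269 ± 29.6 in lean livers, a difference of 0.14 (SE 0.0947, adjusted *P*=0.766) that did not pass. Against obese livers, formerly obese livers had less *Cd36*, which fell by 1.21 (SE 0.306, adjusted *P*=0.207), and less *Pparg*, which fell by 1.31 (SE 0.216, adjusted *P*=0.0511). *Cd36* was the only 1 of 15 measured genes of fatty acid uptake and activation that passed in obese vs lean livers.

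Targets of PPAR-gamma and genes of the lipid droplet, a list to which *Fabp4* is related by its regulator, differed in part between obese and lean livers. In obese vs lean livers 8 of 17 rose and 1 fell, with a median of 0.20 (-0.01 over all probe sets). *Fitm1*, which helps to form lipid droplets, rose by 1.09 (adjusted *P*=0.0849), *Cidec* by 2.46 (adjusted *P*=0.188), the droplet coat gene *Plin4* by 1.18 (adjusted *P*=0.235) and *Pparg* by 0.98. *Pnpla3*, a lipase of the droplet, fell by 0.88. In formerly obese vs obese livers 1 of 17 rose and 6 fell (median -0.26), and in formerly obese vs lean livers 0 of 17 passed (median -0.01). In both 48 h comparisons *Pnpla3* alone passed, lower after HFD.

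Of 23 measured PPAR-alpha targets of the hepatocyte, which set the fatty acid oxidation in which FABP1 takes part, 6 rose and 0 fell in obese vs lean livers (median 0.27, -0.01 over all). The acyl-CoA thioesterase *Acot1* rose by 0.70 (adjusted *P*=0.0799), *Acadm*, the medium-chain acyl-CoA dehydrogenase, by 0.34 (adjusted *P*=0.305), the peroxisome gene *Pex11a* by 0.71 (adjusted *P*=0.315), and *Slc25a20*, the carnitine carrier of mitochondria, by 0.45 (adjusted *P*=0.328). In formerly obese vs obese livers 0 rose and 6 fell (median -0.33). *Fabp1* itself differed by 0.02 and -0.06 in the same 2 comparisons, at a signal near the top of the array. How fully differences show at that level was not tested.

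The next list held genes of fatty acid and cholesterol synthesis under SREBP control. Some of its fatty acid synthesis genes fell with long HFD feeding, and 8 of 16 list genes fell with short feeding in either history. In obese vs lean livers 4 of 16 fell (*Fasn*, *Acaca*, *Acly* and *Elovl6*, of fatty acid synthesis and elongation) and 2 rose (*Srebf2* and *Insig2*), with a median of -0.26 (-0.01 over all). *Fasn* averaged 751 ± 236 in obese and 1161 ± 182 in lean livers, and *Acaca* 227 ± 26.9 in obese and 354 ± 63.5 in lean livers (SD, n = 6 each). In lean-HFD vs lean livers 8 of 16 fell (median -0.49) and in formerly obese-HFD vs formerly obese livers 8 of 16 fell (median -0.54), and 0 rose in either. *Fabp5* differed by -0.87 and -0.39 in these 2 comparisons on 17548238 and did not pass. In formerly obese vs lean livers 0 of 16 passed (median 0.07).

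**Figure D4:**
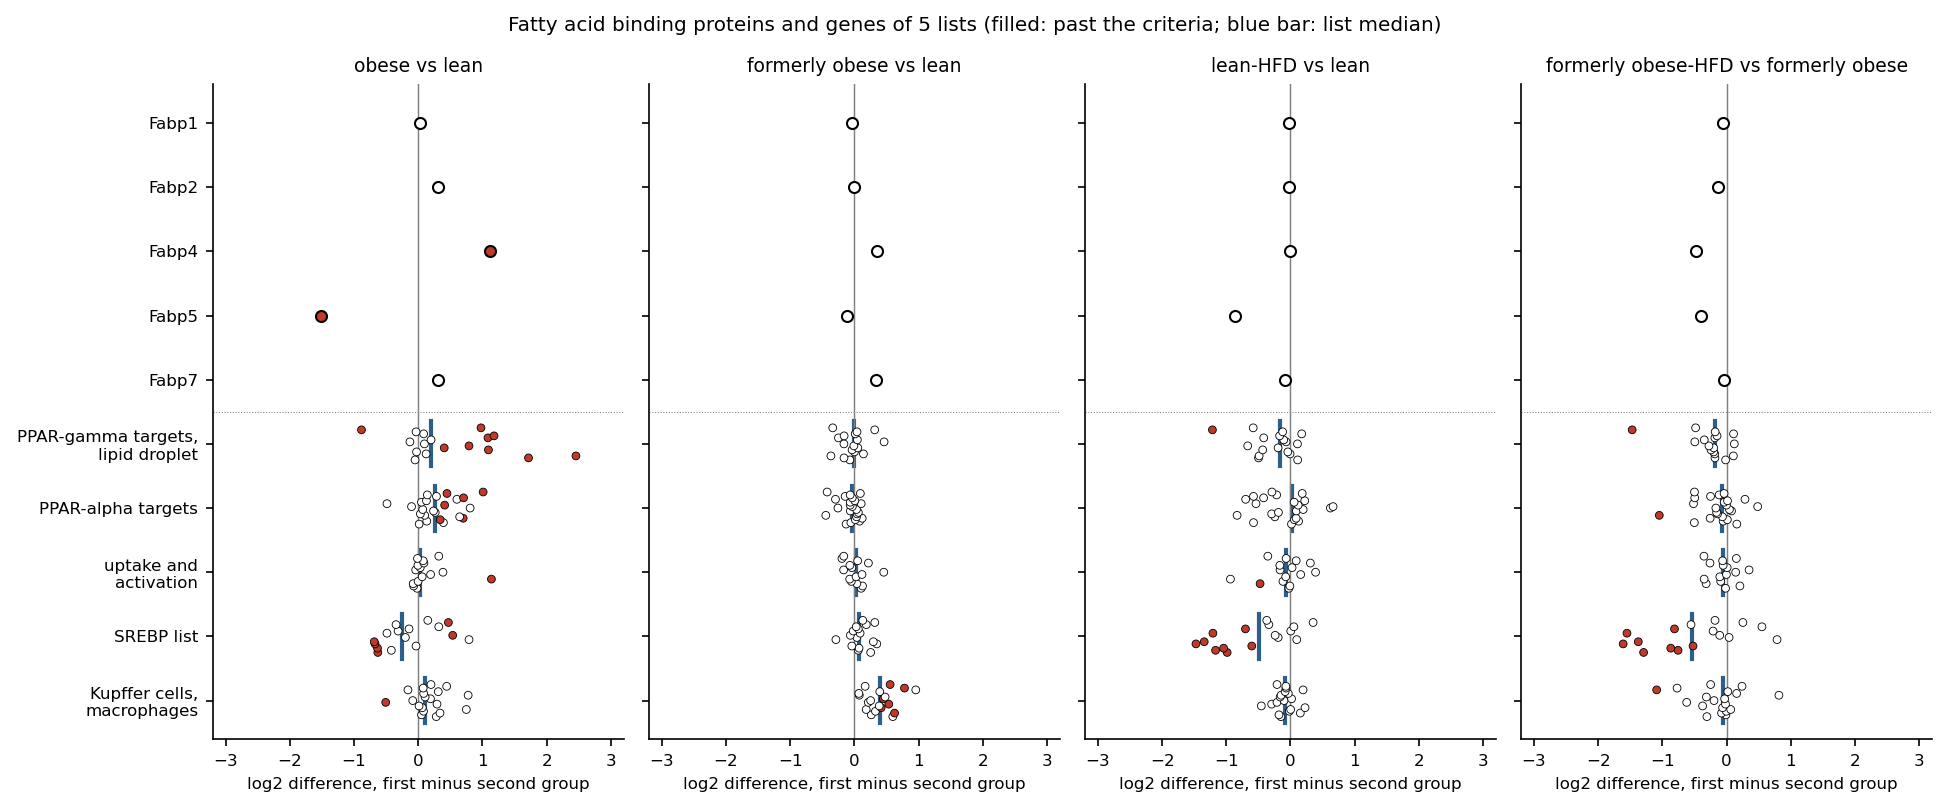
Log2 differences (x axis, first minus second group) of the members, *Fabp5* by 17548238, and below the dotted line of each measured gene of 5 lists, with the list median as a blue bar, in 4 comparisons. Filled points passed the criteria. In obese vs lean livers *Fabp4* lies with the raised genes of the lipid droplet list and *Fabp5* is lower than every gene of the 5 lists, and in both 48 h comparisons (lean-HFD vs lean, formerly obese-HFD vs formerly obese) 8 genes of the SREBP list are filled.

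Other intracellular lipid-binding proteins were measured on 11 probe sets, of which 5 had an average above 8 in a group and so could pass. Of these, 0 passed in obese vs lean and 0 in formerly obese vs lean livers. *Fabp3*, the heart form, averaged 196 ± 18.4 in obese, 202 ± 37.8 in formerly obese and 202 ± 44.5 in lean livers (SD, n = 6 each). *Fabp6*, the ileal bile acid binder, *Fabp9*, *Pmp2*, the myelin member, and the retinoid binders *Rbp2*, *Rbp7* and *Crabp1* had averages under 8 in every group. *Scp2*, the sterol carrier, averaged 2969 ± 157 in obese and 2889 ± 137 in lean livers. *Crabp2*, which binds retinoic acid, was lower in formerly obese than obese livers by -0.48 on the log2 scale (adjusted *P*=0.270) at a signal of 9.10 against 12.6.

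*Fabp4* and *Fabp5*, which moved in opposite directions, are neighbours on mouse chromosome 3. In the order of the RefSeq annotation, *Fabp5* is followed by *Pmp2*, *Fabp9*, *Fabp4* and *Fabp12*, with 2 genes that encode no protein, *Gm33365* and *Gm9833*, between *Fabp5* and *Pmp2*. Of the 3 other genes, *Fabp12* averaged 8.53 ± 1.51 in obese and 7.55 ± 0.815 in lean livers, and *Pmp2* 5.10 ± 0.306 in obese and 5.65 ± 1.13 in lean livers (SD, n = 6 each). *Fabp9* averaged 5.34 ± 0.723 in obese and 5.53 ± 0.934 in lean livers. None of the 3 passed in a comparison of 2 groups. In the averaged 48 h contrast *Fabp12* had *P* under 0.01, with a log2 difference of 0.18 (adjusted *P*=0.439), a ratio under 1.2.

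Over the 30 livers, *Fabp2* varied together with *Fabp4* (Pearson *r*=0.697, and 0.554 once group means were removed) and with *Fabp1* (*r*=0.605, and 0.506 within groups). *Fabp4* and *Fabp5* (17548238) gave *r*=-0.321, and -0.0649 within groups. All values come from the same arrays, which are normalised together, so these are descriptions of 30 livers and carry no test. *Fabp7* correlated with the other members between -0.299 and 0.354.

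The genes most like each member were named by the highest *r* over the 30 livers. For *Fabp2* these were *Pctp*, a phosphatidylcholine transfer protein (*r*=0.861), the carboxylesterase *Ces2e* (*r*=0.852) and *Etfdh*, which passes electrons from acyl-CoA oxidation to the respiratory chain (*r*=0.833). For *Fabp4* they were *Tmem64* (*r*=0.857), *Vps41* (*r*=0.832) and the collagen *Col14a1* (*r*=0.795). For *Fabp7* they were the myeloid receptor *Clec4a3* (*r*=0.786), the Kupffer cell receptor *Vsig4* (*r*=0.763) and *Cd5l*, secreted by macrophages (*r*=0.762). Within groups these 3 had *r* of 0.740, 0.710 and 0.761 in the same order.

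For *Fabp5* on 17548238 the most alike were *Eif5*, a translation initiation factor (*r*=0.757), *Nf1*, the neurofibromin gene (*r*=0.750), and *Gm5215* (*r*=0.699). *Nf1* and *Eif5* were among the first 3 for all 4 probe sets. For *Fabp1* the most alike were *Oxld1* (*r*=0.767), *Atp5l*, a subunit of the mitochondrial ATP synthase (*r*=0.756), and *COX1* (*r*=0.752). These genes were chosen for their *r* among all named genes above the average of 8, so a high value is expected of the choice alone.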

How the data were processed

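RNA of 30 livers was amplified and hybridised to Affymetrix Mouse Gene ST arrays. The deposited values are log2 signals that the authors made with RMA in Affymetrix Expression Console 1.4.1.46. RMA subtracts background, gives all arrays the same distribution of probe intensities and summarises probes by set, so a shift common to all genes is removed. The genome build of the array is not named in the sources used here. Of 41345 probe sets, 23521 carry 1 gene symbol, 1820 several and 16004 none, and only the first kind was named.

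Groups were taken from the labels. Each comparison was fitted with limma 3.58.1 (R 4.3.3) on its 12 livers and all probe sets, following the criteria of the study's liver analysis, with Benjamini-Hochberg adjustment over all probe sets. Exact permutation tests were two-sided. The averaged contrasts, and the use of all 10 pairs in the permutation test, were added after values had been seen. For averaged contrasts and the interaction, *P* under 0.01 was the only threshold. For list genes with several probe sets, the brightest on average was used. Other steps used Python 3.11.15. Fits were first tested on simulated data. With 2-fold changes in the simulated obese vs lean comparison over 41345 probe sets, 95.7% of changed probe sets were recovered, and 42.1% with 1.25-fold changes. Of the unchanged probe sets, 314 passed the criteria. The changed probe sets were drawn at random and the noise was independent, so these shares do not give the chance of a call for the members.

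Members, lists and tests were chosen with earlier results of these data known. In each list described, the genes named are up to 4 with the smallest *P* among those past the criteria, with *Ppara*, *Pparg* and *Cd36* always named. Genes most like a member had the highest Pearson *r*. Other genes named were chosen after their values were seen. The replicate numbers were not used to pair livers in the main fits. *P* values weigh a difference between groups against the spread between mice, with 6 mice in each group. Alternatives tried were all 30 livers in 1 fit, array weights, median-centred arrays, a trended robust prior, the replicate number as a block, only probe sets past the average, 1 probe set or the mean for *Fabp5*, the FDR in place of *P*, and leaving out each liver.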

Additional observations from a re-analysis of the deposited data

Results flagged for a closer look

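For 40 sets of 6 livers (8 probe sets in 5 groups), the highest or lowest liver was compared with its nearest neighbour, and 2 stood apart where about 2 are due by chance. *Fabp2* was 2190.43 in obese replicate 1, with the next obese liver at 2614 and the highest at 2817. *Fabp7* was 23.4741 in lean-HFD replicate 6, with the next lean-HFD liver at 48.2 and the highest at 62.9. Without obese replicate 1, *Fabp2* differed by -0.36 in formerly obese vs obese livers, against -0.31 with it. Without lean-HFD replicate 6, *Fabp7* differed by 0.17 in formerly obese-HFD vs lean-HFD livers, against 0.37 with it.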

How the results depend on the processing

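No result changed to the opposite sign with a call, and of 1872 alternative values 58 had the other sign, all with limma *P* of 0.315 or more. With arrays centred on their medians, 88 of 88 results kept direction and call. Calls of all 4 *Fabp5* probe sets in obese vs lean and formerly obese vs obese livers held without any 1 liver. At an FDR of 10% the count of member probe sets was 0 in obese vs lean, formerly obese vs obese, obese vs lean-HFD, obese vs formerly obese-HFD and averaged 48 h comparisons. With 1 probe set a gene the counts were 2 in obese vs lean, 3 in formerly obese vs obese, 2 in obese vs formerly obese-HFD and 0 in the averaged 48 h contrast. With all 30 livers in 1 fit, calls were lost in formerly obese vs obese livers for *Fabp2* (-0.31) and *Fabp4* (-0.76), and in obese vs formerly obese-HFD livers for *Fabp5* on 17396056 (-1.03) and 17404073 (-1.34). In the averaged 48 h contrast the count was 4 with array weights and 1 with only probe sets past the average, where 17396056 (-0.82) was lost. Some probe sets gained a call: *Fabp5* on 17548717 in obese vs formerly obese-HFD livers with all 30 livers in 1 fit and with the trended robust prior (-0.99 in each), *Fabp2* in obese vs lean livers with that prior (0.31), and *Fabp5* as the mean of its probe sets in obese vs formerly obese-HFD livers and in the averaged 48 h contrast. Averaged contrasts and the interaction were called on *P* under 0.01 alone. The causes were not tested.

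Replicate numbers shared between groups gave no clear pairing, since 0 of 10 pairs of groups had every same-numbered correlation over 0.1 (range -0.110 to 0.112). This bar cannot exclude a weaker pairing. Mean same-numbered correlations were -0.00331 to 0.0328, negative only in formerly obese vs lean livers. Values were centred within groups, so the mean for other numbers nearly follows from that for the same numbers and is no separate reference. In lean vs lean-HFD livers the means were 0.0328 for the same and -0.00656 for other numbers. With the replicate number as a block, *Fabp4* in obese vs lean livers kept its difference of 1.12 and lost its call, 5 results gained a call, the count was 1 in formerly obese-HFD vs formerly obese livers and 4 in the averaged 48 h contrast, and 82 of 88 results kept direction and call.

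Without any 1 liver, counts ranged from 4 to 6 in obese vs lean, 0 to 1 in formerly obese vs lean, 4 to 6 in formerly obese vs obese, 0 to 2 in formerly obese-HFD vs formerly obese, 1 to 6 in obese vs formerly obese-HFD livers (1 without obese replicate 1), 0 to 4 in the averaged 48 h contrast and 0 to 1 in the averaged history contrast. *Fabp4* ranged from 0.95 to 1.36 in obese vs lean, -0.92 to -0.59 in formerly obese vs obese and 0.91 to 1.47 in obese vs formerly obese-HFD livers. *Fabp2* ranged from -0.36 to -0.25 in formerly obese vs obese livers. *Fabp5* ranged from -1.17 to -0.77 on 17396056 and -1.53 to -0.97 on 17404073 in obese vs formerly obese-HFD livers, and from -0.94 to -0.64 and -1.13 to -0.76 in the averaged 48 h contrast. Differences that had no call moved too. *Fabp5* in lean-HFD vs lean livers ranged from -1.02 to -0.54 on 17548238 and -1.47 to -0.78 on 17404073, smallest without lean-HFD replicate 1. *Fabp4* ranged from 0.21 to 0.60 in formerly obese vs lean and from -0.71 to -0.15 in formerly obese-HFD vs formerly obese livers, and *Fabp7* from 0.17 to 0.45 in formerly obese-HFD vs lean-HFD livers. In formerly obese vs lean livers *Fabp4* and *Fabp7* each gained a call without 1 liver. Signals near 8, such as those of several marker genes, are at the dim end of the array and show differences poorly.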
